A study of Mus musculus with 8 samples.

Results

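The TREM and DAP12 signalling system is described here through 8 of its genes in macrophages sorted from mouse liver. They are the receptors Trem1, Trem2, Trem3, Treml2 and Treml4, the adaptors Tyrobp (DAP12) and Hcst (DAP10), and the kinase Syk. They were chosen by symbol, and all 8 were found among the 35906 genes of the count table and the 29956 named genes of the deposited FPKM table. Macrophages of wild-type BALB/c mice made up 4 CCl4 samples and 4 vehicle samples. Carbon tetrachloride (CCl4) is a hepatotoxin used to produce liver fibrosis in mice, and its dose and duration are not given in the sources used. Livers were digested with collagenase, hepatocytes were removed by slow centrifugation, and cells bearing CD45 and F4/80, without CD31 per the series design, were sorted. SMART-Seq HT amplification and NEBNext Ultra II library preparation followed. No label says that each library is a different mouse, so a p-value reflects variation among these samples that may be technical.

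The TREM receptors that use DAP12 are single-pass membrane proteins of myeloid cells with an immunoglobulin-like outer domain and a short cytoplasmic tail. A charged residue in the membrane pairs them with DAP12, an adaptor with an immunoreceptor tyrosine-based activation motif. Src family kinases phosphorylate that motif and Syk docks on it. TREM2 binds lipids, apolipoproteins and cell debris, and in mouse microglia and lipid-associated macrophages it is needed for a gene programme of phagocytosis and lipid handling. TREM1, by contrast, is known as an amplifier of inflammation in monocytes and neutrophils.

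Library totals ran from 19489104 to 26196063 estimated counts. The first principal component of the tested genes, with 44.5% of the variance, separated the groups. CCl4 4 and vehicle 2 stood apart from the other libraries: their summed CPM (counts scaled to a common library total) over olfactory and other chemosensory receptor genes were 3035 and 3096, against 608.0 to 1538 in the other 6 libraries. Mitochondrial transcripts made up 0.763% to 1.16% of CCl4 libraries and 1.91% to 5.31% of vehicle libraries. Among 8 listed macrophage markers, Adgre1, which encodes F4/80, averaged 1187 ± 166 CPM in CCl4 samples and 1272 ± 210.0 CPM in vehicle samples (SD, n = 4 each), and was not called changed (adjusted p = 0.768 by edgeR). Of those 8 markers 1 was called higher and 2 lower, where 8.93% of all tested genes were called higher and 6.26% lower. Lyz2 (lysozyme), the most abundant, averaged 47030 ± 6266 CPM in CCl4 samples and 16440 ± 2578 CPM in vehicle samples (SD, n = 4 each; log2 fold change 1.52, adjusted p = 0.000318 by edgeR). The Kupffer cell genes Clec4f and Timd4 were lower in CCl4 samples, with log2 fold changes of -1.72 and -2.45 (adjusted p of 0.000977 and 5.44e-05 by edgeR). RNA of sorted cells was pooled within a library, so a change in the mix of macrophages and a change in RNA per cell cannot be told apart.

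Markers of other cell types also moved with the groups, and their part in the results below was not tested. Values summed over a list are CPM of the library total. Counts of called markers are to be read beside the 8.93% of all tested genes called higher and the 6.26% called lower. The 12 neutrophil markers summed to 267 to 494 CPM in CCl4 samples and 116 to 251 CPM in vehicle samples, 7 of 12 were called higher and none lower, and Elane was at 0 in every vehicle library. That count of 7 was 4 without CCl4 1 or vehicle 3, and 10 without CCl4 4 or vehicle 4. The 5 monocyte markers summed to 170 to 396 CPM in CCl4 samples and 61.4 to 104.6 CPM in vehicle samples, with 2 higher and none lower, and 4 higher without both CCl4 4 and vehicle 2. The 6 endothelial markers summed to 174.5 to 219 CPM in CCl4 samples and 458 to 763.5 CPM in vehicle samples, with none higher and 5 lower. The 5 stellate and mesothelial markers summed to 102 to 219 CPM in CCl4 samples and 87.6 to 457 CPM in vehicle samples. Of them 3 were higher (Upk3b by 3.98, Msln by 3.80 and Col1a1 by 2.54 in log2 fold change) and 1 was lower (Lrat at -2.26). Dcn, the most abundant of the 5, averaged 83.1 ± 22.4 CPM in CCl4 samples and 207 ± 139 CPM in vehicle samples (SD, n = 4 each). It was not called in the main fit (log2 fold change -1.32, adjusted p = 0.0547 by edgeR). It was called lower with library size alone, with upper-quartile scaling, without the low-count filter and without vehicle 3. Of the platelet, B cell and hepatocyte markers 1 each was called lower (Pf4, Cd79b and Alb), and each of these calls ended when any of several single libraries was left out. For 5 conventional dendritic cell markers the sums were 54.8 to 111.3 CPM in CCl4 samples and 48.15 to 103.9 CPM in vehicle samples. Among them edgeR called Flt3 higher (log2 fold change 1.13, adjusted p = 0.00283) and Clec9a lower (-0.73, adjusted p = 0.0481). The Clec9a call ended under most alternatives. For 4 plasmacytoid dendritic cell markers, none called in the main fit, they were 11.1 to 28.35 CPM in CCl4 samples and 11.1 to 16.2 CPM in vehicle samples. None of 11 tested NK and T cell markers was called in the main edgeR fit, where Cd4 was the 1 with an unadjusted p under 0.05. DESeq2 called Cd4 lower. So did edgeR with library size alone (0.0228), with upper-quartile scaling (0.0301) and without the low-count filter (0.0289). It did so too without vehicle 2 (0.019) and without both CCl4 4 and vehicle 2 (0.0117), all edgeR adjusted p. That list summed to 58.6 to 83.9 CPM in CCl4 samples and 82.4 to 116 CPM in vehicle samples.

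The 5 receptor genes lie in 1 cluster, on 1 strand of mouse chromosome 17 (GRCm38, mm10, GENCODE M21): Trem1 at chr17:48232768-48246924, Trem3 at chr17:48247777-48258841, Treml4 at chr17:48264295-48275360, Treml2 at chr17:48299498-48312533 and Trem2 at chr17:48346401-48354147, all on the plus strand. Tyrobp at chr7:30413760-30417585 on the plus strand and Hcst at chr7:30417712-30419854 on the minus strand point at each other across 126 bases. Syk lies at chr13:52583173-52648792 on the plus strand. The library kit is not stated to mark the strand, but among the 8 genes Trem1 alone overlaps another gene, the antisense AC241601.2. The exons of AC241601.2 share 0 bases with those of Trem1, and it held 0 to 5 counts in a library.

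Trem2 has 4 annotated transcripts, of which 2 encode protein in full. The window below is shown because it is where their coding sequences differ. Trem2-202 takes a splice acceptor 55 bases upstream of that of Trem2-201, at chr17:48351691-48351745 on the plus strand, and the capitals mark the bases that it gains. The insert is not a multiple of 3, so the reading frame shifts after it, and the coding sequence is 747 bases (249 codons) in Trem2-202 and 681 bases (227 codons) in Trem2-201. The sequences are from the GENCODE M21 transcripts, 5′ to 3′, with 24 bases on each side of the junction:
Trem2-202: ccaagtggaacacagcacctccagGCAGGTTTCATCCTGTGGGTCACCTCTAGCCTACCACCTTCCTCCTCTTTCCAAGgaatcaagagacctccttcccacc
Trem2-201: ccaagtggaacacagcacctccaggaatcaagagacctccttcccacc

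Of the 8 genes, 3 were called higher in CCl4 samples (Trem2, Treml2 and Syk), 1 was called lower (Treml4), and 4 were not called (Trem1, Trem3, Tyrobp and Hcst). The test was edgeR's quasi-likelihood test over all genes with Benjamini-Hochberg adjustment at 0.05. Of the 15212 genes tested, it called 2311, or 15.2%, with 8.93% higher and 6.26% lower. The median log2 fold change of the 8 genes was 0.44, and that of all tested genes was -0.03. Normalized CPM of the groups did not overlap for 4 of the 8 genes, against 22.5% of all tested genes.

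**Figure D1:**
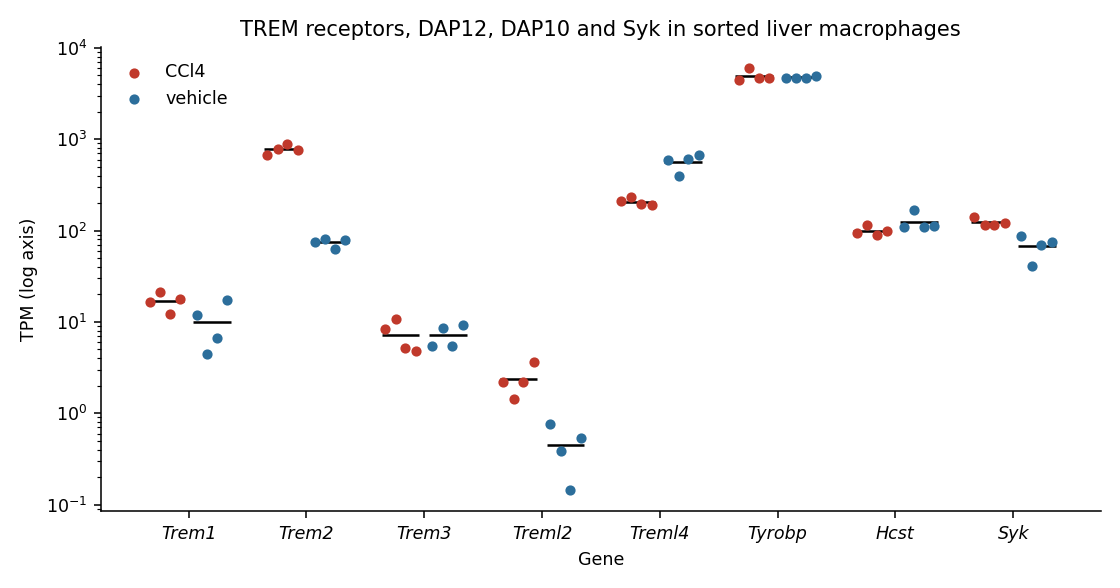
TPM (length-corrected transcript abundance) of the 8 genes in each sample, on a log axis, with CCl4 samples left of vehicle samples and a bar at each group mean. Tyrobp sits near 4971 TPM in CCl4 and 4748 TPM in vehicle samples, while Trem2 is at 778.3 and 74.9 TPM, and the groups do not overlap for Trem2, Treml2, Treml4 and Syk.

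Trem2, the lipid-sensing receptor, was the most changed of the 8. It had 495.0, 548.7, 694.9 and 471.7 normalized CPM in CCl4 samples 1 to 4, against 55.8, 63.1, 43.1 and 52.1 CPM in vehicle samples 1 to 4. The lowest CCl4 sample was far above the highest vehicle sample, and the spread within either group was small beside the gap. The means were 552.5 ± 100.2 CPM in CCl4 samples and 53.5 ± 8.34 CPM in vehicle samples (SD, n = 4 each), a log2 fold change of 3.37 ± 0.19 (SE; adjusted p = 2.63e-06 by edgeR) and 10.3 times the vehicle level. Leaving out any 1 library kept the log2 fold change between 3.27 and 3.46. In the deposited FPKM table, a separate table of the same libraries, Trem2 averaged 87.4 ± 19.7 FPKM in CCl4 samples and 8.50 ± 0.94 FPKM in vehicle samples (SD, n = 4 each).

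Treml4, a receptor of the same cluster that is expressed on mouse macrophages and dendritic cells and pairs with DAP12, was lower in CCl4 samples. It had 214.7, 225.2, 225.7 and 170.4 CPM in CCl4 samples 1 to 4, against 635.7, 434.1, 589.2 and 618.9 CPM in vehicle samples 1 to 4. The groups did not overlap, and vehicle 2 was the lowest of its group. The log2 fold change was -1.45 ± 0.17 (SE; adjusted p = 0.00022 by edgeR), and it stayed between -1.56 and -1.36 when any 1 library was left out. Thus Treml4 and Trem2, which lie in the same cluster on chromosome 17, moved in opposite directions.

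Treml2, a cluster member that does not require DAP12, was a low gene throughout. It had 5.13, 3.90, 6.11 and 7.66 CPM in CCl4 samples 1 to 4, against 1.28, 1.25, 0.435 and 0.920 CPM in vehicle samples 1 to 4. Every CCl4 sample was above every vehicle sample. The log2 fold change was 2.55 ± 0.38 (SE; adjusted p = 0.000964 by edgeR), on as few as 11 estimated counts in the lowest library. Its highest value in the FPKM table was 0.183, under the 0.5 needed for the test there.

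Trem1, the inflammatory amplifier, was not called. It had 39.0, 47.2, 31.5 and 34.8 CPM in CCl4 samples 1 to 4, against 28.0, 10.7, 13.7 and 36.1 CPM in vehicle samples 1 to 4. Vehicle 4 lay within the CCl4 range, and the other vehicle samples lay under it. Its log2 fold change was 0.79 ± 0.33 (SE; adjusted p = 0.142 by edgeR). Without vehicle 4 it was 1.13 with an adjusted p of 0.0394 by edgeR. Trem1 is also a neutrophil gene, and 7 of the 12 neutrophil markers summed above were called higher in CCl4 samples. Csf3r, the most abundant of them by CPM, averaged 178.8 CPM in CCl4 samples and 96.9 CPM in vehicle samples. Ly6g, Cxcr2, S100a9, Camp and Retnlg were not called (adjusted p of 0.143, 0.537, 0.0732, 0.0938 and 0.0526 by edgeR). The part of neutrophils in the Trem1 values was not tested.

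Trem3, a DAP12-coupled receptor of mouse macrophages, had 5.32, 6.51, 3.53 and 2.57 CPM in CCl4 samples 1 to 4, against 3.44, 5.67, 3.13 and 5.16 CPM in vehicle samples 1 to 4. The ranges lay over each other. Its log2 fold change was 0.05 ± 0.33 (SE; adjusted p = 0.947 by edgeR), with an SE too wide to exclude a moderate change in either direction. Its sign turned under other scalings, at -0.10 with library size alone and -0.07 with upper-quartile scaling.

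Tyrobp, the gene of the adaptor through which TREM1, TREM2, TREM3 and TREML4 signal, was the most abundant of the 8. It had 1256, 1571, 1385 and 1107 CPM in CCl4 samples 1 to 4, against 1271, 1359, 1154 and 1171 CPM in vehicle samples 1 to 4. The vehicle range lay inside the CCl4 range. The log2 fold change was 0.10 ± 0.16 (SE; adjusted p = 0.735 by edgeR), and it was -0.04 with scaling by library size alone, which moved the median of all genes to -0.15. In the FPKM table the difference on the log2(FPKM + 1) scale was -0.18 ± 0.18 (SE; adjusted p = 0.564 by limma).

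Hcst encodes DAP10, the adaptor that recruits phosphoinositide 3-kinase and can join DAP12 under TREM2. It had 16.4, 18.9, 16.6 and 14.3 CPM in CCl4 samples 1 to 4, against 18.5, 30.8, 16.9 and 16.9 CPM in vehicle samples 1 to 4. Vehicle 2 stood well above the rest, and the other vehicle samples lay within the CCl4 range. Relative to vehicle the log2 fold change was -0.33 ± 0.21 (SE; adjusted p = 0.346 by edgeR), and without vehicle 2 it was -0.07.

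Syk, the kinase that docks on the phosphorylated motif of DAP12, was modestly higher in CCl4 samples. It had 510.6, 394.2, 442.5 and 357.1 CPM in CCl4 samples 1 to 4, against 324.6, 156.7, 235.0 and 243.0 CPM in vehicle samples 1 to 4. The groups did not overlap, though CCl4 4 and vehicle 1 were close. The log2 fold change was 0.83 ± 0.21 (SE; adjusted p = 0.0223 by edgeR). The call ended without CCl4 1 (adjusted p = 0.0654), without vehicle 3 (adjusted p = 0.0672) and without vehicle 4 (adjusted p = 0.0602), all by edgeR, while the log2 fold change stayed between 0.67 and 1.03.

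On the FPKM table, limma on log2(FPKM + 1) tested 7 of the 8 genes and called 2 higher and 1 lower, where it called 14.2% of 8232 genes. Trem2 differed by 3.20 (adjusted p = 5.16e-07), Treml4 by -1.44 (adjusted p = 0.000883) and Syk by 0.79 (adjusted p = 0.0313). The Syk call there ended without CCl4 1 (0.0926), CCl4 2 (0.0604), CCl4 3 (0.0788), vehicle 3 (0.0611) or vehicle 4 (0.052), all limma adjusted p. Trem1, Trem3, Tyrobp and Hcst were not called in that table either.

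Compared per length, in TPM, the order of the genes differed between the groups. In CCl4 samples it was Tyrobp (4971 ± 668 TPM), Trem2 (778.3 ± 87.1), Treml4 (207 ± 18.2), Syk (123 ± 12.5), Hcst (98.9 ± 11.3), Trem1 (16.9 ± 3.63), Trem3 (7.28 ± 2.83) and Treml2 (2.38 ± 0.92; SD, n = 4 each). In vehicle samples it was Tyrobp (4748 ± 90.7 TPM), Treml4 (568 ± 119), Hcst (124 ± 28.5), Trem2 (74.9 ± 8.13), Syk (68.3 ± 19.8), Trem1 (10.1 ± 5.71), Trem3 (7.24 ± 2.05) and Treml2 (0.455 ± 0.259; SD, n = 4 each). The neighbours whose ranges overlapped were Syk with Hcst in CCl4 samples, and Trem2 with Syk and Trem1 with Trem3 in vehicle samples. Trem2 thus stood directly under its adaptor in CCl4 samples, whereas Treml4 held that place in vehicle samples.

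Ratios of TPM within a sample do not depend on scaling between libraries. Trem2 was 15.2%, 13.2%, 19.0% and 15.9% of Tyrobp in CCl4 samples 1 to 4, against 1.62%, 1.74%, 1.34% and 1.61% in vehicle samples 1 to 4. That is a difference of 3.32 in mean log2 ratio, with an adjusted p of 0.0429 over the 6 ratios computed (two-sided exact permutation test, raw p = 0.0286, the smallest that 4 against 4 samples allow). The adjusted value depends on how many of the 6 ratios reach that smallest raw p. Syk was 3.15%, 1.93%, 2.47% and 2.53% of Tyrobp in CCl4 samples 1 to 4, against 1.88%, 0.878%, 1.45% and 1.54% in vehicle samples 1 to 4. The groups did not overlap, and the log2 difference was 0.84 (adjusted p = 0.0429, exact permutation test). Hcst was 2.08%, 1.93%, 1.90% and 2.07% of Tyrobp in CCl4 samples 1 to 4, against 2.32%, 3.55%, 2.31% and 2.29% in vehicle samples 1 to 4. The log2 difference was -0.37 (adjusted p = 0.0429, exact permutation test) and shrank to -0.21 without vehicle 2. Fcer1g, the FcR-gamma chain and the other main adaptor of this kind in macrophages, averaged 72.6% of Tyrobp in CCl4 samples and 68.5% in vehicle samples (adjusted p = 0.4, exact permutation test).

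The receptors known to pair with DAP12 were then summed, namely Trem1, Trem2, Trem3, Treml4 and 16 others, 20 in all. Their TPM summed to 1501, 1588, 1583 and 1465 in CCl4 samples 1 to 4, against 1625, 1352, 1717 and 1717 in vehicle samples 1 to 4. As a share of Tyrobp this averaged 31.2% in CCl4 samples and 33.7% in vehicle samples, a log2 difference of -0.11 (raw p = 0.314, adjusted p = 0.377, exact permutation test). The sign is not settled, since the FPKM table gave 0.42 for the same ratio.

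The make-up of the sum differed between the groups. Trem2 held 45.4%, 49.5%, 56.3% and 51.6% of the sum in CCl4 samples 1 to 4, against 4.67%, 6.06%, 3.68% and 4.57% in vehicle samples 1 to 4. Trem2 over all other receptors of the sum was 4.39 higher in log2 ratio in CCl4 samples (adjusted p = 0.0429, exact permutation test). Treml4 averaged 13.5% in CCl4 samples and 35.1% in vehicle samples, Pilrb2 7.79% and 23.6%, and Pilrb1 5.66% and 19.4%. Cd300lb, a lipid-binding activating receptor, averaged 10.7% in CCl4 samples and 4.96% in vehicle samples.

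**Figure D2:**
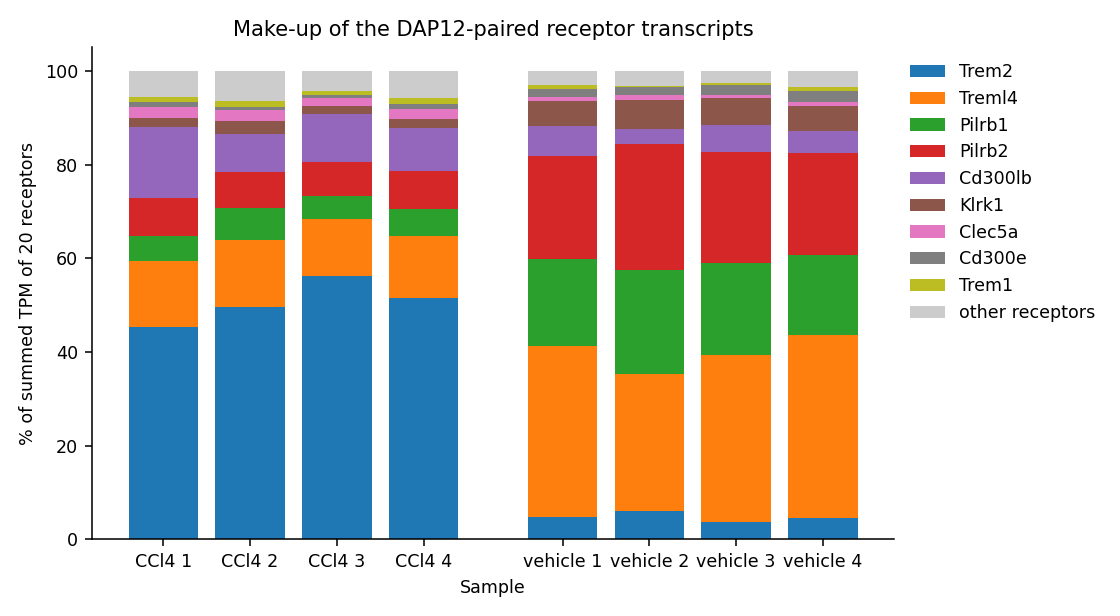
Share of the summed TPM of 20 DAP12-paired receptors held by each receptor, per sample, with CCl4 samples on the left and vehicle samples on the right. Trem2 fills 45.4% to 56.3% of each CCl4 bar and 3.68% to 6.06% of each vehicle bar, while Treml4, Pilrb1 and Pilrb2 fill most of the vehicle bars.

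Transcript shares of each gene were taken from its estimated counts, and 13 transcripts were tested by a two-sided exact permutation test. Of these 0 passed the adjustment (the smallest adjusted p was 0.124), while Trem2-203, Syk-203 and Syk-201, or 3 of 13, had a raw p under 0.05. Each of these 3 had a raw p of 0.0286, the smallest that 4 against 4 samples allow. At that limit none can pass unless most of the 13 reach it, so the adjusted test cannot decide on these shares. Trem2-201 held 80.8 ± 0.67% of Trem2 in CCl4 samples and 80.7 ± 4.28% in vehicle samples (SD, n = 4 each). Trem2-202, the form with the 55-base insert printed above, held 16.6%, 15.2%, 16.9% and 14.5% in CCl4 samples 1 to 4, against 9.30%, 12.0%, 15.3% and 15.3% in vehicle samples 1 to 4. These ranges overlap, with an adjusted p of 0.279 by exact permutation test. Trem2-203, a retained-intron form, held 3.36%, 3.63%, 2.26% and 4.11% in CCl4 samples 1 to 4, against 4.43%, 6.17%, 7.01% and 7.67% in vehicle samples 1 to 4. The groups were apart (raw p = 0.0286, adjusted p = 0.124, exact permutation test), with a mean difference of -2.98 points by counts and -0.59 points when shares were taken from TPM. Trem2-204, a short non-coding form, averaged 0.0904% in CCl4 samples and was at 0 in all vehicle samples, where the whole gene had as few as 1089 estimated counts.

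Syk has 2 main full-length transcripts with different first exons and the same coding length of 1887 bases. Syk-203, from the upstream start, held 45.3%, 43.4%, 51.5% and 57.2% of Syk in CCl4 samples 1 to 4, against 66.0%, 75.1%, 66.2% and 63.1% in vehicle samples 1 to 4. Syk-201, from the downstream start, held 38.4%, 38.4%, 29.5% and 21.8% in CCl4 samples 1 to 4, against 18.1%, 9.54%, 18.9% and 20.7% in vehicle samples 1 to 4. In both cases the groups did not overlap, with CCl4 4 the closest to vehicle. Each had a raw p of 0.0286, the smallest possible, and an adjusted p of 0.124 by exact permutation test. The estimated counts of Syk-203 ranged from 4296 to 5037 in CCl4 samples and from 2534 to 5350 in vehicle samples, and those of Syk-201 from 1634 to 4244 in CCl4 samples and from 322 to 1467 in vehicle samples. Tyrobp-202 and Tyrobp-201, which share the gene almost evenly, held 49.5% and 49.0% in CCl4 samples and 43.0% and 55.2% in vehicle samples (adjusted p = 0.186 each, exact permutation test).

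**Figure D3:**
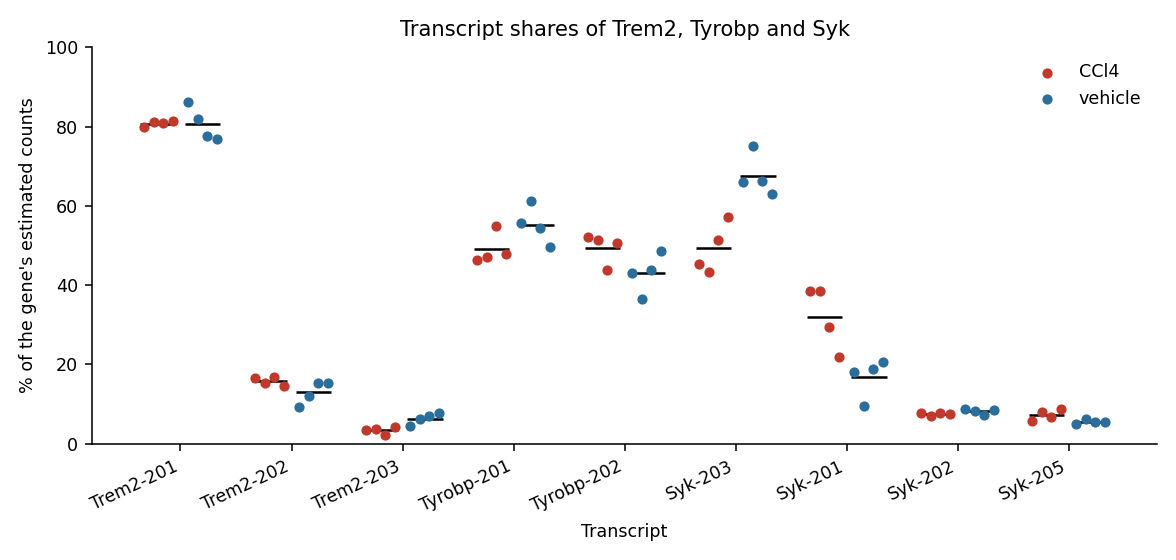
Share of a gene's estimated counts held by each of 9 transcripts of Trem2, Tyrobp and Syk, per sample, with CCl4 samples left of vehicle samples and a bar at each group mean. Trem2-201 holds about the same share in both groups (80.8% and 80.7%), while Syk-201 averages 32.0% in CCl4 samples and 16.8% in vehicle samples.

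Windows before RefSeq starts of Trem2 and Syk are shown because both genes were called and because RefSeq gives Syk starts in separate places. Each window is the 250 bases before a RefSeq transcript start (GRCm38.p6), and of the 8 genes Trem1, Trem2, Treml4, Hcst and Syk had such a window. The Syk windows are not those before the M21 starts of the transcripts compared above. In M21, Syk-203 starts at position 52583173, before the upstream window, which ends just before the start of Syk-202 at 52583437. The downstream window spans the M21 start of Syk-201 at 52596853. Motifs were searched on both strands: GGAAGT (an ETS motif bound by PU.1, the myeloid lineage factor), TGANTCA (AP-1), CACGTG (E-box), TCATGTG (the M-box of the MITF and TFE family) and TTGCNNAA (C/EBP). The shorter ETS core GGAA was not searched by itself. The capitals in the Trem2 window, chr17:48346151-48346400 on the plus strand, mark a TGANTCA match, and neither Syk window, chr13:52583187-52583436 upstream and chr13:52596632-52596881 downstream, both on the plus strand, held a match to any of the 5:
Trem2: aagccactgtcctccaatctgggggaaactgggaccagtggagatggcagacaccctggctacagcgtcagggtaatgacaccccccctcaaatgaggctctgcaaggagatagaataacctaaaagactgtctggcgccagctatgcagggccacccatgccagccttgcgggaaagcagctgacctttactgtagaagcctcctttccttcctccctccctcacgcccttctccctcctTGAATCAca
Syk upstream: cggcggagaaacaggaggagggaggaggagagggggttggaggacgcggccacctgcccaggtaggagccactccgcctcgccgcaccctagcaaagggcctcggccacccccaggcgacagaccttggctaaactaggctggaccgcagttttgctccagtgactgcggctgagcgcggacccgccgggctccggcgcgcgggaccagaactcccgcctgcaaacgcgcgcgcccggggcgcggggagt
Syk downstream: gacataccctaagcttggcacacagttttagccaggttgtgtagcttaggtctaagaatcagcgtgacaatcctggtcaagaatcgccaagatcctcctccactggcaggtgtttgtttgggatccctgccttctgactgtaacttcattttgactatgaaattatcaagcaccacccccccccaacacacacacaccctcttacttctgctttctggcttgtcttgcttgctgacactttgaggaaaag

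The upstream Syk window, which lies after the start of Syk-203, was 71.6% G and C with 27 CpG dinucleotides, and the downstream one was 47.6% with 2 CpG. The Trem2 window was 56.0% with 4 CpG, where the median of 32851 mouse promoter windows was 52.4% with 6 CpG. A TGANTCA match stood in 6.75% of all windows, GGAAGT in 19.7%, CACGTG in 6.02%, TCATGTG in 3.25% and TTGCNNAA in 9.56%. Treml4 held 1 GGAAGT and 1 TCATGTG, Trem1 held 1 GGAAGT and Hcst held 2 GGAAGT, and no matches overlapped. A match is a description of letters and not a site of binding.

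The other genes of the pathway were read from lists, beside the 8.93% called higher and 6.26% called lower over all genes. Among 16 other DAP12-paired receptors, 13 were tested, with 5 higher, 4 lower and a median log2 fold change of 0.42. Clec5a, a C-type lectin of monocytes and macrophages, averaged 29.8 ± 1.43 CPM in CCl4 samples and 12.9 ± 2.30 CPM in vehicle samples (SD, n = 4 each; log2 fold change 1.20, adjusted p = 0.000392 by edgeR). The SIRP-beta genes Sirpb1a (1.45), Sirpb1b (1.09) and Sirpb1c (1.36) were higher by log2 fold change, but they are near-identical copies between which kallisto divides reads, so their single values are uncertain. Cd300lb was higher by 1.07 (adjusted p = 0.0229), a call that ended without CCl4 1 (0.0707), CCl4 3 (0.0513) or vehicle 4 (0.0653), all edgeR adjusted p.

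The lower receptors of that list were Pilrb1, Pilrb2, Klrk1 and Cd300e. Pilrb1 and Pilrb2, activating paired receptors whose reads can also be divided wrongly between copies, had 44.6 ± 4.84 and 60.5 ± 7.07 CPM in CCl4 samples and 154.8 ± 11.3 and 195.0 ± 11.5 CPM in vehicle samples (SD, n = 4 each). Their log2 fold changes were -1.79 and -1.69 (adjusted p of 1.96e-05 and 2.72e-05 by edgeR). Klrk1, which encodes NKG2D and uses DAP10 as well as DAP12 in mice, had 37.4 ± 9.88 CPM in CCl4 samples and 99.5 ± 7.97 CPM in vehicle samples (SD, n = 4 each; log2 fold change -1.41, adjusted p = 0.000367 by edgeR). Klrk1 is also an NK cell gene, and the NK and T cell marker sums are given above. Cd4, the most abundant of those markers by CPM, averaged 24.05 CPM in CCl4 samples and 41.9 CPM in vehicle samples. In the same list Ncr1, Nkg7, Gzma, Gzmb, Prf1 and Eomes had log2 fold changes of 0.04, 0.003, -0.34, -0.035, -0.14 and -0.58, none called. The part of NK cells in the Klrk1 values was not tested. Cd300e had a log2 fold change of -1.30 (adjusted p = 0.00143 by edgeR). Of the other genes in the Trem cluster, Treml1 had a log2 fold change of 1.86 (adjusted p = 0.149 by edgeR) at under 1.5 CPM in every sample.

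Of 8 tested genes of the FcR-gamma chain and receptors that signal through Syk, 3 were higher and 1 was lower, with a median of 0.31. Clec4e (Mincle, a sensor of dead cells and glycolipids) had 968.7, 555.6, 469.5 and 413.0 CPM in CCl4 samples 1 to 4, against 127.6, 173.2, 53.3 and 195.9 CPM in vehicle samples 1 to 4. All CCl4 samples were above all vehicle samples (log2 fold change 2.13, adjusted p = 0.0031 by edgeR). Clec7a (Dectin-1, the beta-glucan receptor, which docks Syk itself) had a log2 fold change of 1.77 (adjusted p = 0.000165) and Clec4d 1.55 (adjusted p = 0.00602), while Clec4n (Dectin-2) was at -0.81 (adjusted p = 0.00859), all by edgeR. Fcer1g itself, the most abundant of that list at 3587 TPM in CCl4 samples and 3251 TPM in vehicle samples, was not called (0.17, adjusted p = 0.601 by edgeR).

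None of the 6 Src family kinases was called by edgeR or by DESeq2, with a median of -0.15 by edgeR, and 2 had an unadjusted p under 0.05. The block by replicate number called 1 of them higher. Scaling by library size alone or by upper quartile called 1 lower, as did leaving out vehicle 2, alone or with CCl4 4. Lyn, a kinase that phosphorylates such activation motifs, averaged 291 ± 30.8 CPM in CCl4 samples and 275.9 ± 43.6 CPM in vehicle samples (SD, n = 4 each; log2 fold change 0.08, adjusted p = 0.808 by edgeR).

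Downstream of Syk, 7 of 22 genes were higher and 1 was lower, with a median of 0.34. The adaptor Lat2 (NTAL, a membrane scaffold phosphorylated by Syk) had 215.9, 116.5, 183.4 and 145.3 CPM in CCl4 samples 1 to 4, against 23.2, 33.6, 15.2 and 34.8 CPM in vehicle samples 1 to 4. Blnk, the linker that brings phospholipase C-gamma to Syk, had 151.3, 151.0, 182.3 and 142.4 CPM in CCl4 samples 1 to 4, against 44.5, 29.6, 27.5 and 31.2 CPM in vehicle samples 1 to 4. Neither gene's groups overlapped, and the log2 fold changes were 2.63 for Lat2 and 2.24 for Blnk (adjusted p of 0.000137 and 2.28e-05 by edgeR). Tec, a kinase of the same pathway, was higher by 1.79 and Malt1, the protease of the CARD9 and BCL10 complex, by 1.68 (adjusted p of 0.00021 and 0.000806 by edgeR). Prkcd, the most abundant of the list and the kinase that links Syk to CARD9, was higher by 0.92 (adjusted p = 0.00283 by edgeR). Pik3cb was higher by 1.21 and Ptk2b by 0.64, and Vav2 was the 1 lower gene at -0.58. The Ptk2b call ended without CCl4 1, 2 or 3 or vehicle 3 or 4 (adjusted p of 0.0619 to 0.0856), and the Vav2 call without CCl4 1, 2 or 4 or vehicle 1, 3 or 4 (0.093 to 0.12), all by edgeR. The remaining 14 genes, Plcg2, Vav1, Btk, Card9, Bcl10 and Grb2 among them, were not called.

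Among 16 inhibitory phosphatases, adaptors and receptors, 2 were higher and 3 lower, with a median of 0.17. Cblb, a ubiquitin ligase that limits Syk and phosphoinositide 3-kinase signalling, was higher by 1.15 (adjusted p = 0.00186), and Ubash3b, a phosphatase of Syk, by 0.88 (adjusted p = 0.00319). Siglece, a sialic-acid-binding inhibitory receptor, had 47.9 ± 9.01 CPM in CCl4 samples and 163 ± 29.6 CPM in vehicle samples (SD, n = 4 each; log2 fold change -1.77, adjusted p = 0.000139). Pilra, the inhibitory partner of the PILR-beta receptors, was lower by log2 fold change (-1.13, adjusted p = 0.000211), as was Dok2 (-0.80, adjusted p = 0.00666). These p-values are by edgeR. Lilrb4a, the most abundant of the list at 1121 TPM in CCl4 samples and 968.1 TPM in vehicle samples, was not called (adjusted p = 0.615 by edgeR).

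Of 8 TREM ligands and partners, 3 were higher and 1 lower, with a median of 0.62. Apoe, a lipoprotein that binds TREM2, was the most abundant gene of the list at 112800 TPM in CCl4 samples and 68740 TPM in vehicle samples. It had 66410, 59960, 96250 and 68380 CPM in CCl4 samples 1 to 4, against 48300, 48170, 36550 and 41540 CPM in vehicle samples 1 to 4. The groups did not overlap (log2 fold change 0.74, adjusted p = 0.0309 by edgeR), but the call ended without CCl4 3 (0.06) or without vehicle 2 (0.0526), 3 (0.0933) or 4 (0.0804), with the replicate number as a block (0.1) and without the low-count filter (0.278), all edgeR adjusted p. Lgals3 (galectin-3, a ligand of TREM2 in mouse microglia) was higher by 1.50 (adjusted p = 0.00247) and Plxna1 (plexin-A1, which complexes with TREM2 and DAP12) by 0.90 (adjusted p = 0.00634), both by edgeR. Sema6d, the semaphorin that binds plexin-A1, was lower at -1.35 (adjusted p = 0.00227 by edgeR).

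Of 7 sheddase and gamma-secretase genes, which cut TREM2 from the surface and then its stub in the membrane, 1 was higher and none lower, and 2 were higher without CCl4 2 or vehicle 3. The 1 was Psen2 (log2 fold change 0.93, adjusted p = 0.00329 by edgeR). Adam10 and Adam17, the sheddases, were at 0.49 and 0.67 (adjusted p of 0.0984 and 0.0796 by edgeR), and DESeq2 called Adam17 (adjusted p = 0.0326). Psenen, the most abundant, averaged 177.8 TPM in CCl4 samples and 177.2 TPM in vehicle samples. Csf1r, whose signal depends in part on DAP12, averaged 1141 TPM in CCl4 samples and 1314 TPM in vehicle samples and was not called (adjusted p = 0.802 by edgeR). Its ligand Il34 was lower at -2.70 (adjusted p = 0.00673 by edgeR), at under 1 CPM on average in either group.

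**Figure D4:**
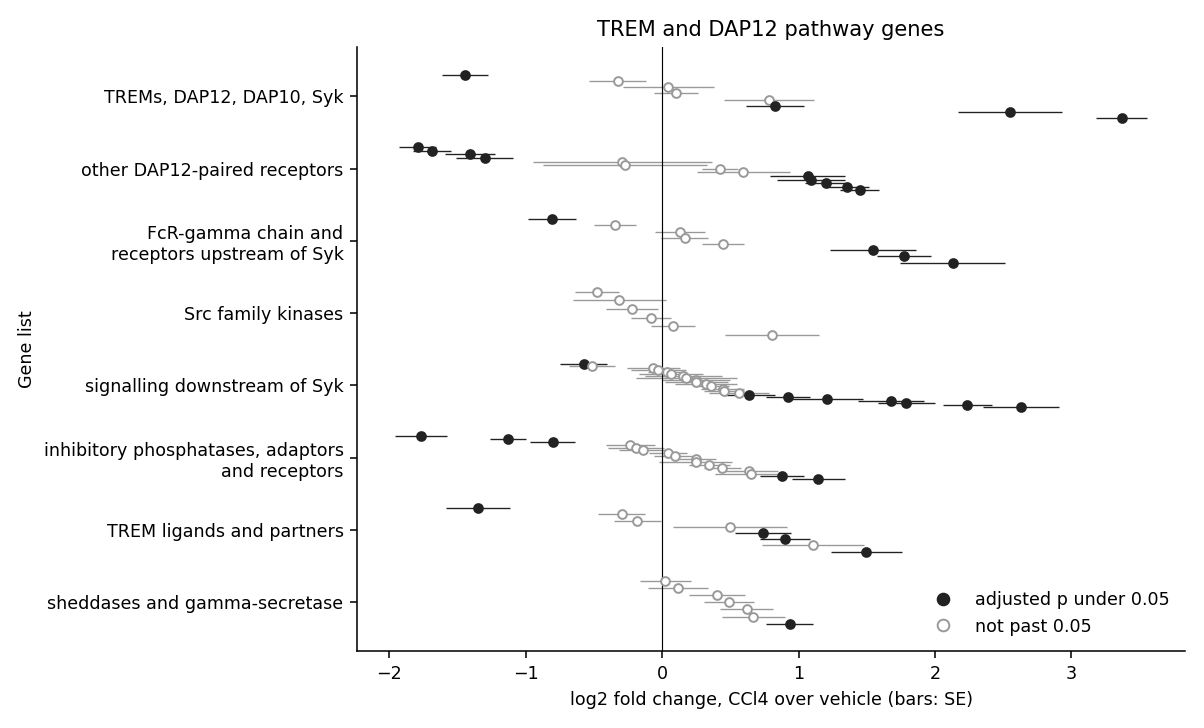
Log2 fold changes of CCl4 over vehicle with SE for the 8 genes (top row) and 7 pathway lists, where each point is a gene and filled points passed an adjusted p of 0.05 by edgeR. The points of the 8 genes run from -1.45 (Treml4) to 3.37 (Trem2), and the Src family kinases hold no filled point.

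The genes that mouse microglia raise in a TREM2-dependent way were read as a further list, chosen with the rise of several of them in these samples already known, so that it is not independent evidence. Of 12, 7 were higher and none lower, with a median of 1.69. Gpnmb, a lysosomal glycoprotein of lipid-laden macrophages, had 9151, 3915, 9522 and 5818 CPM in CCl4 samples 1 to 4, against 8.33, 8.64, 17.9 and 56.5 CPM in vehicle samples 1 to 4. It was the most changed of the list (log2 fold change 8.28, adjusted p = 4.63e-05 by edgeR). Spp1 (osteopontin) was higher by 4.51, Itgax (CD11c) by 3.62, Cd9 by 2.73, Cd63 by 2.61, Clec7a by 1.77 and Lpl (lipoprotein lipase) by 1.50. Axl, Ccl6, Csf1, Lilrb4a and Cst7 were not called, with log2 fold changes of -0.19, 0.07, 0.06, 0.25 and 1.60. Ccl6, the most abundant of the list by mean TPM over all samples, averaged 2073 TPM in CCl4 samples and 2029 TPM in vehicle samples.

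The 5 tested genes whose pattern over the 8 samples was most like that of Trem2 were Nrcam, Myo5a, Ms4a4a, Gpm6a and Ndrg1. Likeness was the root mean square difference between gene-centred log2 CPM, which was 0.245 for Nrcam, 0.263 for Myo5a, 0.315 for Ms4a4a, 0.317 for Gpm6a and 0.331 for Ndrg1. Myo5a, an unconventional myosin, averaged 103 ± 8.43 CPM in CCl4 samples and 8.58 ± 2.13 CPM in vehicle samples (SD, n = 4 each). Ms4a4a, a tetraspan protein, averaged 218.5 ± 22.5 CPM in CCl4 samples and 29.8 ± 7.39 CPM in vehicle samples (SD, n = 4 each). Nrcam and Gpm6a were low genes, at 8.75 and 12.65 CPM in CCl4 samples and 0.956 and 1.54 CPM in vehicle samples on average. The log2 CPM used a prior count of 2, which damps differences at such levels. The measure rewards a difference between the groups of the same size as that of Trem2, and the 8 samples share those groups.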

How the data were processed

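For each of the 8 samples the authors deposited kallisto output, namely estimated counts and TPM of every transcript. For the series they deposited FPKM of every gene, whose making is not described. Per the submitters' processing notes the tools were kallisto, edgeR and limma, with mm10 and no versions named. The deposited estimated counts are not normalized between samples, and the deposited TPM have the same total in every sample.

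Transcripts were assigned to genes with GENCODE M21 by identifier without version. Of 117494 transcripts 116405 matched, and all 28 transcripts of the 8 genes had the M21 length. The unmatched transcripts, with 0.29% to 0.313% of a library's counts, were left out. The FPKM table had 1 unnamed line, which was left out. Counts were summed per gene, rounded, filtered (filterByExpr, minimum count 10, minimum total 15) and compared by edgeR 4.0.16 in R 4.3.3, with TMM, group as the sole term, a two-sided quasi-likelihood test and Benjamini-Hochberg adjustment at 0.05. The SE is the size of the log2 fold change over the square root of F. CPM of single genes are TMM-normalized. The fit was tested on simulated data. FPKM were tested with limma 3.58.1 on log2(FPKM + 1), for genes above 0.5 FPKM in 4 or more samples. This pseudocount understates changes of low genes. Shares (transcripts at 5% or more of a gene with 20 or more counts in every sample) and ratios were compared by exact permutation tests in SciPy 1.17.1.

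The 8 genes, the lists and the tests were chosen with earlier results of these data known. Besides the 8 genes, the text names up to 4 called genes of largest change and the most abundant gene of each pathway list (not of the marker lists), and the 5 genes most like Trem2. Other genes named were chosen after their values were seen. A gene that this rule names is not reported here. No 2 libraries of a group agreed within sampling noise (lowest mean chi-square per gene 30.02). Alternatives were DESeq2 1.42.0, other scalings, filters, count summaries and pseudocounts, TPM, count or FPKM in place of the main unit, a replicate block, and libraries left out.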

Additional observations from a re-analysis of the deposited data

Results flagged for a closer look

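In groups of 4 samples, a sample was looked at again where its gap to the nearest other sample took more of the group's range than Dixon's 95% critical value for 4 samples, which chance alone gives in about 1 of 20 groups. Of 54 groups examined, 5 had such a sample. Vehicle 2 stood out in 2 of them, with Hcst at 30.8 CPM against 16.9 to 18.5 in the other vehicle samples, and Hcst at 3.55% of Tyrobp against 2.29% to 2.32%. Vehicle 2 was also 1 of the libraries with high chemosensory receptor counts, and the part of that in the Hcst value was not tested. CCl4 3 stood out in the split of Tyrobp, with Tyrobp-202 at 43.7% and Tyrobp-201 at 55.0% of the gene, against 50.7% to 52.1% and 46.4% to 47.8% in the other CCl4 samples. These are mirror images of 1 another. CCl4 2 stood out for Syk-202, at 7.09% of Syk against 7.55% to 7.64%.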

How the results depend on the processing

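Trem2, Treml2 and Treml4 kept their direction and their calls under every alternative of the count fit. With scaling by library size alone 1082 genes were higher and 1431 lower (43.1% of calls higher), and with upper-quartile scaling 1226 and 1356 (47.5%), against 1358 and 953 (58.8%) with TMM. These scalings moved the median of all genes to -0.15 and -0.12. Under them Trem3 turned to -0.105 and -0.069, and Tyrobp to -0.036 with library size alone. Leaving out 1 library gave 1004 to 1503 higher and 578 to 1163 lower genes, and log2 fold changes of -0.18 to 0.24 for Trem3, 0.67 to 1.03 for Syk and 0.56 to 1.13 for Trem1. Of the 8 genes it gave 1 to 2 higher in the FPKM table, where Syk differed by 0.57 to 0.96 and Trem3 by -0.147 to 0.084. Syk in the FPKM table without the filter kept 0.79 but not its call (adjusted p = 0.174 by limma).

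Of the lists, genes downstream of Syk had 2 lower with DESeq2, with library size alone, with upper-quartile scaling, without vehicle 2 and without both CCl4 4 and vehicle 2. They had 0 lower with the block, with counts made from length-scaled TPM, and without any 1 library other than CCl4 3 or vehicle 2. Inhibitory genes had 4 higher with DESeq2 and without both libraries. Sheddases had 3 higher with DESeq2, with the block and without the low-count filter. They had 2 higher with RLE scaling in edgeR, without CCl4 2, without vehicle 3 and without both libraries. FcR-gamma genes had 2 lower with library size alone. Src kinases had 1 lower with library size alone, with upper-quartile scaling, without vehicle 2 and without both libraries, and 1 higher with the block. Smaller moves of a list count are not given.

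By TPM in place of counts the Trem2-201 share turned to -2.27 points. Leaving out 1 library gave -1.19 to 1.91 points for Trem2-201, -1.36 to 2.57 for Trem1-201, -1.0 to 0.15 for Hcst-201 and -0.54 to 0.11 for Treml4-202. By FPKM, Hcst over Tyrobp was -0.21 and lost its call, Fcer1g over Tyrobp was 0.24 and gained one, and all receptors over Tyrobp turned to 0.42. By estimated counts Trem2 over Tyrobp was 3.27, Hcst -0.38, Syk 0.77 and Trem2 over the other receptors 3.97, none past 0.05. Over the 6 ratios a call needs most of them at the smallest raw p of 0.0286, so a ratio can lose its call through another ratio. Without 1 library no ratio can pass (smallest exact p 0.0571), with ranges of 3.23 to 3.40, -0.42 to -0.21, 0.62 to 0.99 and 4.27 to 4.52.

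Replicate numbers did not pair the samples. Each sample's deviations of log2 CPM from its group mean were correlated with those of the other group's samples. Between same-numbered samples these correlations were 0.0152, -0.241, 0.0387 and -0.169, and no CCl4 sample correlated best with its own number. With the number as a block 1281 genes were higher and 829 lower. The blocked ratios were 3.32, -0.37, 0.84 and 4.39, none able to pass since the smallest paired p is 0.125. Treml2, with 11 counts in its lowest library, is the gene most limited by depth.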
